A study of Mus musculus with 24 samples.

Results

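Collagens are the main fibre- and sheet-forming proteins of the extracellular matrix. The family was read out of RNA-seq of the medial prefrontal cortex of 5xFAD mice. Its members were the genes whose mouse symbol has the form of a collagen chain (Col, a type number, a, a chain number) and whose mean level over all libraries was at least 0.3 CPM, the read count scaled to a common library total. Of 56750 entries in the count table, 44 had such a symbol and 43 reached that level. The network-forming Col10a1, a chain of growth-plate cartilage, was the 1 below it, at a mean of 0.0281 CPM. Col6a6 (0.368 CPM) and Col17a1 (0.387 CPM) were the members just above it, on totals without further scaling. All 43 passed the filter on low counts.

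There were 24 libraries in 6 groups of 4. The SI_EE group held socially isolated mice in the arm named EE, for enriched environment, and the SI_WT group isolated mice in the arm named WT. The SI_Con group held isolated mice with no further arm. GH_EE, GH_WT and GH_Con were the same arms under the housing named GH. The labels do not spell out GH or WT, and every library carries the genotype label 5xFAD and the same batch label. The 5xFAD line is a transgenic mouse model that forms amyloid plaques, with its transgenes under the neuronal Thy1 promoter. Age is not given. Sex, read from Xist against Y-linked transcripts, was mixed in every group. GH_Con 4 was the only male library of GH_Con, and SI_EE 4 the only female library of SI_EE. Titles number the replicates 1 to 4 within a group without saying whether each is a separate mouse. As each group held both sexes, its libraries cannot all come from a single mouse. The p-values therefore cover only the spread among the libraries, which may be technical in part.

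A collagen chain has a long run of repeats with glycine at the head of each, and chains of the same type wind together into a rigid helix. Fibrillar collagens are secreted as procollagens, trimmed outside the cell and packed into cross-linked fibrils. In the brain these lie mainly in the meninges and around larger vessels, where fibroblasts make them. Type IV collagen forms the sheet of the basement membrane under endothelial cells and along the glial limiting membrane, and types XV and XVIII attach to that sheet. Neurons make some collagens too. In mice, Col19a1 is made by interneurons and takes part in forming inhibitory synapses. Col25a1 encodes a membrane-bound neuronal collagen whose shed part was first found in amyloid plaques. In bulk tissue, fewer cells of a type and less RNA per cell cannot be told apart.

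Total counts ran from 33683587 to 51274917 per library, and collagen members together took 0.0274% to 0.0454% of them. Some libraries stood apart. SI_EE 1 held 342 CPM of Gabra6 and 242 CPM of Pcp2, both defining genes of the cerebellum, against at most 1.13 and 2.17 CPM in the other libraries. SI_EE 1, GH_WT 2 and GH_WT 4 had 53.1, 38.0 and 56.4 CPM of Tcf7l2, a thalamic transcription factor, against at most 13.6 CPM elsewhere. Ttr, the transthyretin of the choroid plexus, passed 100 CPM in SI_EE 3 (522 CPM), SI_Con 4 (1013 CPM) and GH_WT 2 (321 CPM). SI_EE 1 was the highest of all libraries for 16 collagen members and the lowest for 6. Longer genes read low in SI_Con 2, SI_Con 3 and SI_WT 4. There a gene's deviation from its mean had a Spearman's rho with exon length of -0.327, -0.276 and -0.352. SI_WT 4 was the highest library for 7 members and SI_Con 3 for 5. Values without SI_EE 1 or the libraries with Tcf7l2 or Ttr are given beside many of the results. Those without the libraries in which longer genes read low are given beside a few.

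**Figure D1:**
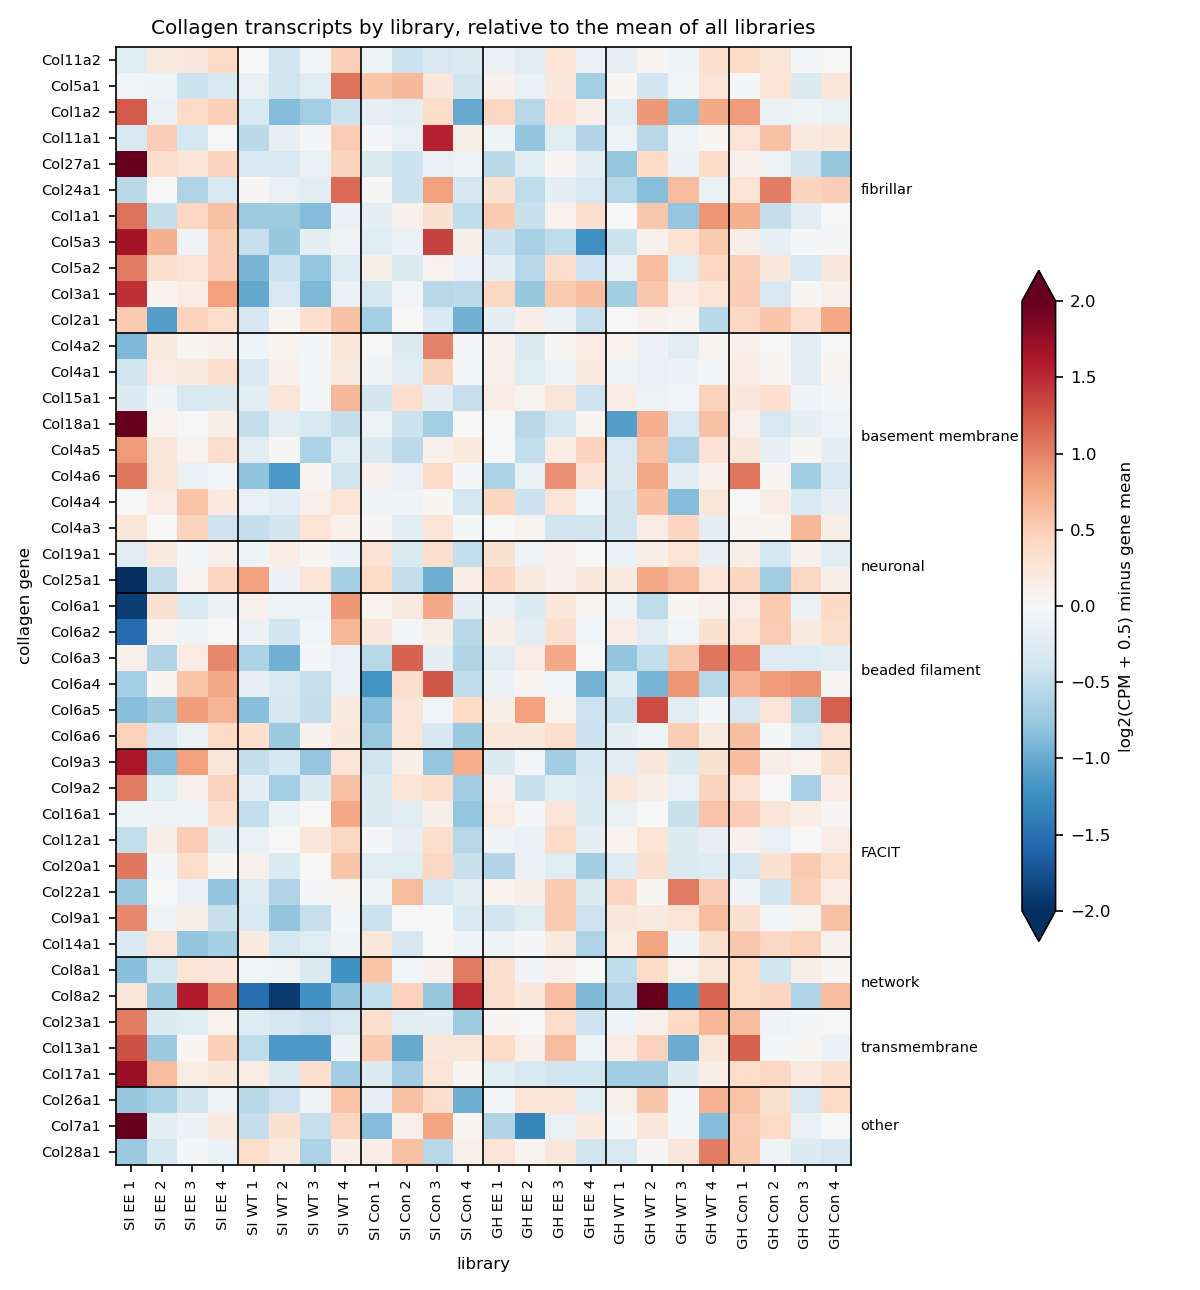
Each row is 1 of the 43 collagen genes, grouped by class, and each column is 1 library, with isolated groups at the left. Colour is the log2(CPM + 0.5) of the library minus the gene's mean over 24 libraries, cut at 2 in each direction; the column of SI_EE 1 holds 16 of the highest and 6 of the lowest values.

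Levels per kilobase of the longest coding transcript put basement membrane and microfibrillar chains at the top of the family. Col6a1 averaged 9.57 CPM per kb over 24 libraries, Col4a2 7.14, Col4a1 5.86 and the neuronal Col19a1 4.87. Next came the fibrillar Col11a2 at 3.23, Col6a2 at 3.09 and Col5a1 at 2.98 CPM per kb. The chains of type I, the collagen of skin and bone, stood at 1.67 (Col1a2) and 0.622 (Col1a1), and type III (Col3a1) at 0.222 CPM per kb. Col6a6 was the lowest member, at 0.042 CPM per kb. By class, the summed level was led by the 8 basement membrane genes and the 11 fibrillar genes. In CPM, basement membrane members summed to 113 ± 9.02 in SI_EE, 98.0 ± 12.3 in SI_WT, 106 ± 32.9 in SI_Con, 97.6 ± 11.8 in GH_EE, 94.8 ± 7.48 in GH_WT and 97.8 ± 9.01 in GH_Con (SD, n = 4 each). Fibrillar members summed to 103 ± 25.6 in SI_EE, 83.9 ± 31.8 in SI_WT, 89.7 ± 19.6 in SI_Con, 77.9 ± 13.4 in GH_EE, 86.7 ± 14.7 in GH_WT and 94.4 ± 11.6 in GH_Con. The 2 neuronal members summed to 28.2 ± 6.56 in SI_EE, 30.7 ± 4.58 in SI_WT, 28.8 ± 6.40 in SI_Con, 32.5 ± 3.68 in GH_EE, 33.9 ± 5.45 in GH_WT and 29.5 ± 6.30 in GH_Con. For all 3 classes the ranges of the libraries overlapped between every pair of groups compared. SI_EE 1, the library with cerebellar transcripts, lay outside the rest of its group in each class. Its fibrillar sum was 140 CPM, against 91.4, 83.4 and 96.4 CPM in SI_EE 2, 3 and 4. Its basement membrane sum was 126 CPM, against 105 to 111 CPM in those libraries. Its neuronal sum was 18.9 CPM, against 29.7 to 34.3 CPM.

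Type I fibrils are built from Col1a1 and Col1a2, and type III fibrils, of vessel walls and meninges, from Col3a1. Values below are TMM-scaled CPM in replicates 1 to 4 of each group. Col1a1 stood at 7.82, 2.29, 4.68 and 5.33 CPM in SI_EE, 1.86, 1.87, 1.63 and 3.1 CPM in SI_WT and 2.9, 3.64, 4.29 and 2.24 CPM in SI_Con. Col1a1 was at 5.12, 2.37, 3.58 and 4.36 CPM in GH_EE, 3.41, 5.17, 1.77 and 6.67 CPM in GH_WT and 5.87, 2.31, 2.86 and 3.36 CPM in GH_Con. The SI_WT libraries lay low, 3 of them below every SI_EE, SI_Con and GH_EE library, and SI_EE 1 was the highest of 24. Col1a2 stood at 19.9, 7.49, 10.9 and 11.5 CPM in SI_EE, 6.51, 4.27, 4.9 and 5.93 CPM in SI_WT and 7.21, 7.03, 10.6 and 3.79 CPM in SI_Con. Col1a2 was at 11.1, 5.33, 10.1 and 8.99 CPM in GH_EE, 6.97, 15.2, 4.49 and 14.2 CPM in GH_WT and 15.1, 7.42, 7.58 and 7.34 CPM in GH_Con. Within SI_EE, GH_WT and GH_Con the level of Col1a2 differed between libraries more than the group means did, with SI_EE 1 the highest and SI_Con 4 the lowest of all. Col3a1 stood at 3.88, 1.17, 1.27 and 2.3 CPM in SI_EE, 0.28, 0.771, 0.357 and 0.955 CPM in SI_WT and 0.747, 1.03, 0.58 and 0.604 CPM in SI_Con. Col3a1 was at 1.62, 0.438, 1.79 and 1.94 CPM in GH_EE, 0.48, 1.82, 1.29 and 1.42 CPM in GH_WT and 1.74, 0.771, 1.12 and 1.21 CPM in GH_Con. Every SI_EE library was above every SI_Con library for Col3a1, while SI_WT and SI_Con overlapped.

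The other fibrillar chains had different profiles over the libraries. Col5a1, the chain that starts type I fibrils, ran from 14.8 CPM in GH_EE 4 to 52 CPM in SI_WT 4. Its partner Col5a2 ran from 0.879 CPM in SI_WT 1 to 4.89 CPM in SI_EE 1. The third chain of type V, Col5a3, stood at 9.35, 4.55, 2.46 and 3.91 CPM in SI_EE, against 1.80, 1.47, 1.68 and 0.825 CPM in GH_EE. Those Col5a3 ranges did not overlap. Col11a1 and Col11a2 form type XI fibrils, best known from cartilage. Col11a1 reached 28.7 CPM in SI_Con 3 and was at most 14.4 CPM elsewhere, and Col11a2 varied little, between 14.2 and 27.1 CPM. Col2a1, the main cartilage collagen, ran from 0.218 CPM in SI_EE 2 to 2.12 CPM in GH_Con 4. Col24a1 ran from 2.77 to 12.5 CPM. Col27a1, like Col24a1 a minor fibrillar collagen, stood at 42.6 CPM in SI_EE 1 and between 4.15 and 10.3 CPM in the other 23 libraries.

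**Figure D2:**
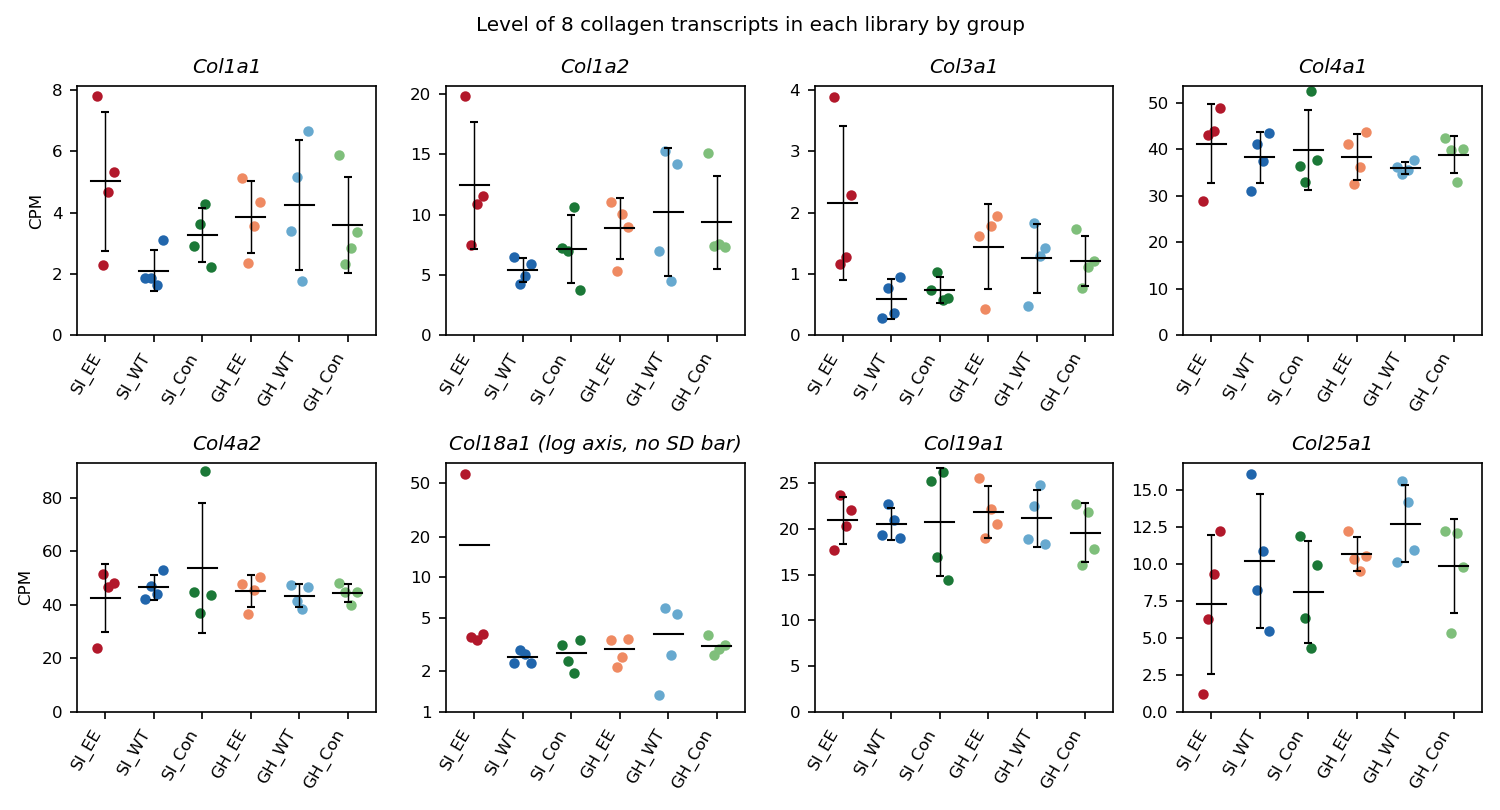
Each panel shows 1 collagen gene, each point 1 library in CPM, with the mean (bar) and SD (whisker) of the 4 libraries of a group; the Col18a1 panel has a log axis and no SD. SI_EE 1 stands at 59.0 CPM for Col18a1, and for Col4a1 and Col19a1 the groups overlap.

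Col4a1 and Col4a2 assemble into the type IV network of nearly every basement membrane, including that of brain capillaries. Col4a1 stood at 29, 43.1, 44 and 49 CPM in SI_EE, 31, 41.2, 37.4 and 43.5 CPM in SI_WT and 36.5, 32.9, 52.5 and 37.6 CPM in SI_Con. Col4a1 was at 41.1, 32.5, 36.2 and 43.7 CPM in GH_EE, 36.2, 34.7, 35.5 and 37.6 CPM in GH_WT and 42.5, 39.9, 33.1 and 40.1 CPM in GH_Con. For Col4a1 the groups all overlapped. Col4a2 stood at 23.8, 51.7, 46.8 and 48.1 CPM in SI_EE, 42.1, 46.9, 44 and 53.2 CPM in SI_WT and 44.7, 36.9, 89.96 and 43.8 CPM in SI_Con. Col4a2 was at 47.8, 36.8, 45.7 and 50.6 CPM in GH_EE, 47.5, 41.5, 38.3 and 46.7 CPM in GH_WT and 48.2, 44.8, 39.8 and 44.9 CPM in GH_Con. SI_Con 3 was the highest library for both chains and SI_EE 1 the lowest for both; apart from these, Col4a1 stayed between 31 and 49 CPM and Col4a2 between 36.8 and 53.2 CPM. With all libraries SI_EE and SI_Con overlapped for both chains. SI_EE 1 and SI_Con 3 were picked as extremes of these same chains, so leaving them out favours a gap between the groups. Col4a1 was then at 43.1 to 49 CPM in SI_EE, against 32.9 to 37.6 CPM in SI_Con. Col4a2 was at 46.8 to 51.7 CPM in SI_EE, against 36.9 to 44.7 CPM in SI_Con. No conclusion is drawn from that gap. The remaining type IV chains, which form specialised networks in kidney, eye and smooth muscle, were low. Col4a5 averaged 3.02 CPM over all libraries, and Col4a6, Col4a4 and Col4a3 averaged 0.822, 0.753 and 0.633 CPM. Col15a1, a collagen that bridges basement membrane and fibrils, ran from 3.94 to 9.20 CPM. Col18a1 is the precursor of endostatin, a fragment that restrains vessel growth. Col18a1 stood at 59, 3.6, 3.41 and 3.77 CPM in SI_EE, 2.3, 2.89, 2.68 and 2.32 CPM in SI_WT and 3.13, 2.4, 1.95 and 3.45 CPM in SI_Con. Col18a1 was at 3.45, 2.16, 2.56 and 3.51 CPM in GH_EE, 1.33, 5.95, 2.63 and 5.39 CPM in GH_WT and 3.7, 2.63, 2.95 and 3.13 CPM in GH_Con. For Col18a1 the next highest library after SI_EE 1 was GH_WT 2, at 5.95 CPM.

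The genes of Col4a1 and Col4a2 lie head to head on mouse chromosome 8 and share their start region, which is shown because the levels of these chains moved together over the libraries. Col4a1 spans chr8:11198423-11312826 on the minus strand and Col4a2 chr8:11312805-11449287 on the plus strand (GENCODE M21, GRCm38, the assembly of mm10). The annotated genes overlap by 22 bases, and whether counting used strand is not given in the sources used here, so reads from that overlap cannot be told apart. The windows below come from RefSeq (GRCm38.p6) and reach from 250 bases before to 50 bases after each start site. They cover chr8:11312777-11313076 (minus strand) for Col4a1 and chr8:11312555-11312854 (plus strand) for Col4a2. Capitals mark the 78 bases, chr8:11312777-11312854, that both windows hold and that read as each other's reverse complement.
Col4a1: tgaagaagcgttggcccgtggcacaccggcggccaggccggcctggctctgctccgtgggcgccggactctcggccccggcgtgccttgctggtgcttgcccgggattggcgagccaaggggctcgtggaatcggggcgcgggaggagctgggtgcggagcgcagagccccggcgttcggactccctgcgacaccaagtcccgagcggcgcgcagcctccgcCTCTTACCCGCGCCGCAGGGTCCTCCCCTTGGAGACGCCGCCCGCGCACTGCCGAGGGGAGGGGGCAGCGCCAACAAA
Col4a2: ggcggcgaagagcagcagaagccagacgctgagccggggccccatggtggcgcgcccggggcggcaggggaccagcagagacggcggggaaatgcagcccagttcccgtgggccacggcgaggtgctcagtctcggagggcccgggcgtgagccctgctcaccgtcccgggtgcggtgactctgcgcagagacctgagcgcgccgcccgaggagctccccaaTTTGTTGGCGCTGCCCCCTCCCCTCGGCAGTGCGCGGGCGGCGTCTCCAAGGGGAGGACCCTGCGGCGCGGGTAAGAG
Within these windows GGGCGG, the core of the GC box, was found 1 time for Col4a1 and 3 times for Col4a2 on either strand, CCAAT was found 1 time in each, and TATAAA in neither. The GGGCGG match of Col4a1 lies in the shared bases and is also 1 of the 3 of Col4a2. Windows were matched for 34 of the 43 members, 37 windows in all. Searched on both strands, with overlapping hits counted, GGGCGG was present in 62.2% of member windows and in 35.7% of all 32851 windows of the same length. CCAAT was present in 35.1% of member windows and 37.4% of all, and TATAAA in 10.8% and 13.6%. These are matches of letters and carry no statement about binding.

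Over the 24 libraries, log2 CPM of Col4a1 and Col4a2 gave r = 0.830 and rho = 0.880 (permutation test, two-sided, p = 1e-05, the smallest that 100000 resamples can give; adjusted over 5 pairs 1.67e-05 for both). Without the libraries farthest out on Col4a1, SI_Con 3 and SI_EE 4, r was 0.821, and after centring on group means it was 0.906. Col1a1 and Col1a2 gave r = 0.913 and rho = 0.885 with the same p-values, and r = 0.890 without SI_EE 1 and SI_WT 3. Col1a1 also followed Slc6a13, a transporter gene of meningeal fibroblasts, with r = 0.871 and rho = 0.864, again with the same p-values, and r = 0.851 without SI_EE 1 and SI_WT 3. Without SI_EE 1 alone the 3 coefficients were 0.800, 0.895 and 0.847. By contrast Col4a1 and the endothelial tight junction gene Cldn5 gave r = 0.157 (permutation p = 0.463, adjusted 0.579) and rho = 0.0565 (permutation p = 0.794, adjusted 0.794). The points share library depth and dissection.

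**Figure D3:**
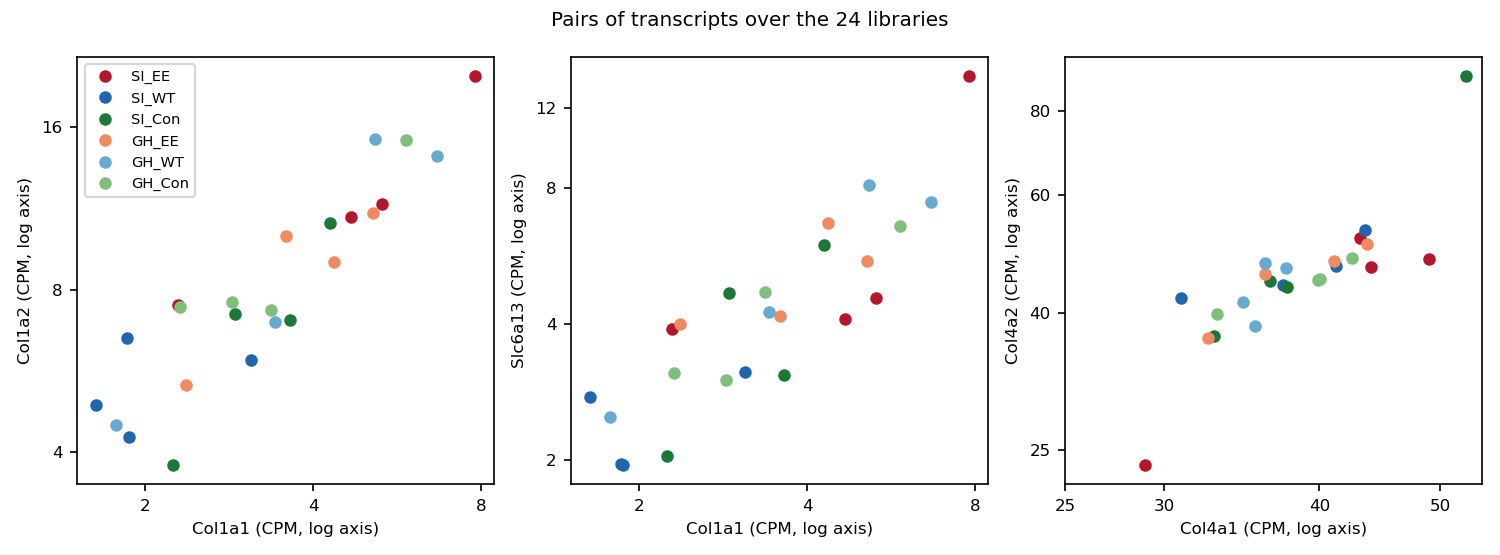
Each point is 1 of the 24 libraries, coloured by group, and both axes are CPM on log scales. Col1a2 (left) and Slc6a13 (middle) track Col1a1 with r = 0.913 and 0.871, and Col4a2 (right) tracks Col4a1 with r = 0.830.

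Markers of the fibroblast source were present in all libraries. The list of 12 meningeal fibroblast genes summed to between 87.5 and 212 CPM in SI_EE, 48.2 and 62.1 CPM in SI_WT, 85.5 and 100.5 CPM in SI_Con, 71.0 and 114 CPM in GH_EE, 55.6 and 159 CPM in GH_WT, and 78.2 and 143 CPM in GH_Con. In summed CPM every SI_WT library was thus below every SI_Con library on this list. By the mean log2 CPM of the same genes these groups overlapped, with SI_WT 4 at 1.64 and SI_Con 4 at 1.56. In 20 of 24 libraries no gene of the list was at 0, and in the other 4 libraries 1 gene was. Endothelial genes (10) summed to between 367 and 513 CPM and mural genes (10) to between 236 and 360 CPM over all libraries.

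The neuronal members are the plaque-associated Col25a1 and Col19a1, which by structure belongs with the fibril-associated collagens. Col19a1 stood at 17.7, 23.7, 20.3 and 22 CPM in SI_EE, 19.3, 22.7, 21 and 19 CPM in SI_WT and 25.2, 17, 26.2 and 14.4 CPM in SI_Con. Col19a1 was at 25.5, 19, 22.2 and 20.5 CPM in GH_EE, 18.9, 22.5, 24.8 and 18.3 CPM in GH_WT and 22.7, 16, 21.9 and 17.8 CPM in GH_Con. Col19a1 was among the steadiest members, with a coefficient of variation of 15.1% over 24 libraries, and all groups overlapped. Col25a1 stood at 1.21, 6.29, 9.37 and 12.3 CPM in SI_EE, 16.1, 8.26, 10.9 and 5.5 CPM in SI_WT and 11.9, 6.34, 4.29 and 9.97 CPM in SI_Con. Col25a1 was at 12.3, 10.4, 9.57 and 10.5 CPM in GH_EE, 10.2, 15.6, 14.2 and 10.9 CPM in GH_WT and 12.2, 5.37, 12.1 and 9.79 CPM in GH_Con. Col25a1 was lowest in SI_EE 1, and SI_Con 3, GH_Con 2 and SI_WT 4 followed at 4.29, 5.37 and 5.50 CPM. GH_EE held the narrowest range, 9.57 to 12.3 CPM. In SI_EE 1 the list of 8 cortical pyramidal neuron genes summed to 1233 CPM, against 3182 to 4585 CPM in the other 23 libraries. Slc17a7, the vesicular glutamate transporter of cortical pyramidal neurons, split the libraries into 12 at 584 to 822 CPM and 12 at 1183 to 1396 CPM across all groups, so its relation with Col25a1 was read within each set. There r was 0.598 (permutation p = 0.0374, adjusted over both sets 0.0747) and -0.379 (permutation p = 0.223, adjusted 0.223), with rho of -0.154 (permutation p = 0.634) and -0.294 (permutation p = 0.355), both adjusted to 0.634. The sign of r differed between the sets, and SI_EE 1 lies in the lower one.

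Type VI collagen forms beaded microfilaments from Col6a1, Col6a2 and a further chain. Col6a1 stood at 9.78, 46.3, 30.03 and 34.3 CPM in SI_EE, 39.5, 34.6, 34.8 and 68.5 CPM in SI_WT and 39.3, 42.3, 63.5 and 32.3 CPM in SI_Con. Col6a1 was at 34.4, 30.8, 43.2 and 38.9 CPM in GH_EE, 35.1, 26.1, 38.5 and 39.9 CPM in GH_WT and 41.8, 54, 33.8 and 49.5 CPM in GH_Con. SI_EE 1 stood below every other library for Col6a1, the next being GH_WT 2. Col6a2 stood at 4.51, 14.5, 13 and 13.9 CPM in SI_EE, 12.7, 10.5, 13.3 and 22.2 CPM in SI_WT and 16.4, 13.4, 15.3 and 9.4 CPM in SI_Con. Col6a2 was at 15, 12, 17.6 and 13.3 CPM in GH_EE, 15.4, 11.7, 13.4 and 17.2 CPM in GH_WT and 16.6, 19.9, 15.8 and 17.8 CPM in GH_Con. SI_EE 1 was the lowest library for both chains and SI_WT 4 the highest for both. Of the other chains, Col6a3 averaged 2.15 CPM, Col6a4 1.5, Col6a5 0.498 and Col6a6 0.366 CPM over all libraries, and Col6a5 and Col6a6 had no read in 3 libraries each. Type IX collagen, made of Col9a1, Col9a2 and Col9a3, decorates fibrils. Col9a3 stood at 22.2, 3.54, 12.4 and 8.12 CPM in SI_EE, 4.76, 5.23, 3.78 and 8.25 CPM in SI_WT and 5.03, 7.47, 3.77 and 11.6 CPM in SI_Con. Col9a3 was at 5.57, 6.54, 4.03 and 5.25 CPM in GH_EE, 5.84, 8.05, 5.57 and 8.51 CPM in GH_WT and 10.6, 7.52, 7.15 and 8.6 CPM in GH_Con. All GH_EE libraries lay below all GH_Con libraries for Col9a3. Col9a2 stood at 13.4, 5.2, 6.67 and 8.66 CPM in SI_EE, 5.47, 3.69, 5.05 and 9.61 CPM in SI_WT and 5, 7.63, 8.12 and 3.68 CPM in SI_Con. Col9a2 was at 6.63, 4.45, 5.22 and 4.89 CPM in GH_EE, 7.48, 6.82, 5.57 and 8.65 CPM in GH_WT and 7.75, 6.27, 3.81 and 7.05 CPM in GH_Con. SI_EE 1 was the highest library for both, and Col9a1 was far lower, at 0 to 1.18 CPM. The other fibril-associated members ran from Col12a1, at 8.48 to 18.4 CPM, and Col16a1, at 5.83 to 18.1 CPM, down to Col14a1, at 0.159 to 1.45 CPM. Col20a1 lay between 1 and 4.54 CPM and Col22a1, known from myotendinous junctions, between 0.328 and 2.46 CPM.

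Col8a1 and Col8a2 build the hexagonal network of type VIII, known from vessel walls and the cornea. Col8a1 stood at 2.12, 3.16, 5.13 and 4.92 CPM in SI_EE, 4, 3.88, 3.32 and 1.51 CPM in SI_WT and 6.35, 3.99, 4.45 and 9.11 CPM in SI_Con. Col8a1 was at 5.31, 3.91, 4.51 and 4.13 CPM in GH_EE, 2.76, 5.55, 4.37 and 5.02 CPM in GH_WT and 5.58, 3.11, 4.61 and 4.24 CPM in GH_Con. For Col8a1 SI_WT 1 alone of its group reached the SI_Con range. Col8a2 stood at 1.71, 0.627, 5.05 and 3.14 CPM in SI_EE, 0.16, 0, 0.306 and 0.579 CPM in SI_WT and 0.833, 2.09, 0.606 and 4.74 CPM in SI_Con. Col8a2 was at 1.83, 1.67, 2.38 and 0.501 CPM in GH_EE, 0.733, 8.3, 0.343 and 3.71 CPM in GH_WT and 1.96, 2.02, 0.715 and 2.38 CPM in GH_Con. All 4 SI_WT libraries lay below all 4 SI_Con libraries for Col8a2. The 3 highest libraries for Col8a2, GH_WT 2, SI_EE 3 and SI_Con 4, were the 3 in which Ttr passed 100 CPM. The list of 8 choroid plexus genes summed to between 5.77 and 12.5 CPM in SI_WT, and between 21.9 and 1093 CPM in SI_Con. Among transmembrane collagens, Col23a1 and Col13a1 led; Col13a1 is needed at the neuromuscular synapse of mice. Col23a1 stood at 9.93, 3.73, 3.84 and 4.89 CPM in SI_EE, 3.82, 3.58, 3.34 and 3.59 CPM in SI_WT and 5.95, 3.88, 3.98 and 2.64 CPM in SI_Con. Col23a1 was at 4.78, 4.58, 6.02 and 3.36 CPM in GH_EE, 4.32, 5, 6.29 and 7.65 CPM in GH_WT and 7.4, 4.39, 4.55 and 4.63 CPM in GH_Con. All SI_WT libraries lay below all GH_WT libraries for Col23a1. Col13a1 stood at 2.17, 0.163, 0.635 and 1.04 CPM in SI_EE, 0.28, 0, 0 and 0.521 CPM in SI_WT and 1.09, 0.0528, 0.79 and 0.805 CPM in SI_Con. Col13a1 was at 0.955, 0.695, 1.19 and 0.53 CPM in GH_EE, 0.733, 1.02, 0.0571 and 0.809 CPM in GH_WT and 2.01, 0.585, 0.63 and 0.517 CPM in GH_Con. SI_EE 1 was the highest library for both, and Col13a1 had no read in SI_WT 2 and SI_WT 3. Col17a1, a hemidesmosome collagen of skin, stood at 2.14 CPM in SI_EE 1 and at most 0.763 CPM elsewhere. The last members are Col26a1, Col28a1 and Col7a1, the anchoring fibril collagen of skin. Col26a1 stood at 2.12, 2.37, 2.94 and 3.63 CPM in SI_EE, 2.56, 2.84, 3.62 and 6.11 CPM in SI_WT and 3.45, 6.15, 5.16 and 1.75 CPM in SI_Con. Col26a1 was at 3.85, 4.87, 4.77 and 3.24 CPM in GH_EE, 4.26, 5.97, 3.83 and 6.64 CPM in GH_WT and 6.09, 4.97, 3.03 and 5.32 CPM in GH_Con. Levels of Col26a1 overlapped between all groups compared. Col7a1 stood at 9.91, 1.63, 1.75 and 2.27 CPM in SI_EE, 1.26, 2.53, 1.28 and 2.78 CPM in SI_WT and 0.833, 2.11, 3.74 and 2.01 CPM in SI_Con. Col7a1 was at 1.11, 0.489, 1.7 and 2.3 CPM in GH_EE, 1.89, 2.35, 1.89 and 0.837 CPM in GH_WT and 2.99, 2.74, 1.72 and 1.94 CPM in GH_Con. Col7a1 showed SI_EE 1 apart, and Col26a1 did not. Col28a1 stayed between 0.151 and 1.70 CPM.

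Counts were compared between groups with edgeR's quasi-likelihood test over 20354 genes, with Benjamini-Hochberg adjustment and all libraries in 1 fit. No collagen member passed an adjusted p of 0.05 in any of the 7 pairwise comparisons, the 2 treatment by housing interactions or the test for any difference among the 6 groups. Over all genes few passed either. The share was 0% in 5 of the 7 pairwise comparisons and in both interactions, 0.00491% in GH_EE against GH_Con and in SI_EE against GH_EE, and 0.0491% for any difference. Members at an unadjusted p under 0.05 are therefore given as values, beside the share of all genes at that level. Counts without a single library other than SI_EE 1 have no such share beside them. They show only how far the count moved and are not read as a result about the members. Fold changes are log2, with SE, and a positive one means higher in the first group named. The median fold change over all genes was between -0.02 and 0.02 in each comparison.

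Isolation without treatment, SI_Con against GH_Con, had 33 of 43 members negative and a median of -0.23, against 50.1% of all genes positive. At an unadjusted p under 0.05 there were 2 members, both lower (3.57% of all genes; 2.97% were higher), and DESeq2 called none (0.163% of all genes). The count was 1 without GH_Con 1, 4 without SI_Con 2 and 5 without SI_Con 3. Without SI_Con 2, SI_Con 3 and SI_WT 4, in which longer genes read low, it was 8 (8.38% of all genes in either direction). Col2a1 stood at 0.460, 1.03, 0.738 and 0.287 CPM in SI_Con, against 1.55, 1.75, 1.43 and 2.12 CPM in GH_Con. These ranges did not overlap, and the fold change was -1.44 ± 0.46 (edgeR adjusted p = 0.548). Col11a2 had -0.45 ± 0.17 (edgeR adjusted p = 0.617). Among basement membrane members 6 of 8 were negative, with Col4a1 at 0.04 ± 0.15 and Col4a2 at 0.28 ± 0.23. Col19a1 had 0.08 ± 0.17 and Col25a1 -0.28 ± 0.45.

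Isolation within EE, SI_EE against GH_EE, gave 9 members at an unadjusted p under 0.05, all higher, where 6.36% of all genes were higher and 2.34% lower at that level. In all 28 of 43 were positive, against 52.9% of all genes. They were the fibrillar Col5a3 (1.81 ± 0.41), Col27a1 (1.51 ± 0.40) and Col5a2 (0.86 ± 0.30), the basement membrane Col18a1 (2.58 ± 0.71), the fibril-associated Col20a1 (1.02 ± 0.33), Col9a3 (1.11 ± 0.40) and Col9a2 (0.68 ± 0.31), and Col17a1 (2.68 ± 1.01) and Col7a1 (1.48 ± 0.56). The smallest adjusted p in edgeR was 0.389, for Col5a3. DESeq2 called 2 members, Col5a3 and Col18a1 (0.109% of all genes). Without SI_EE 1 the count was 3 of 43, against 3.72% of all genes. Col18a1 was then at 0.30 and Col7a1 at 0.43, while Col5a3 had 1.33 (edgeR unadjusted p = 0.00198), Col27a1 0.62 (unadjusted p = 0.0254) and Col20a1 0.67 (unadjusted p = 0.0445). Col1a1 had 0.38 ± 0.39, Col4a1 0.10 ± 0.15, Col19a1 -0.06 ± 0.17 and Col25a1 -0.55 ± 0.45.

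Isolation within the WT arm, SI_WT against GH_WT, gave 8 members at an unadjusted p under 0.05, all lower, where 3.61% of all genes were lower and 1.76% higher at that level. In all 16 of 43 were positive, against 49.5% of all genes. They were Col1a1 (-1.01 ± 0.39), Col1a2 (-0.92 ± 0.38), Col3a1 (-1.10 ± 0.50), Col5a2 (-1.0 ± 0.31), Col8a2 (-3.65 ± 0.98), Col9a1 (-1.79 ± 0.72), Col22a1 (-1.08 ± 0.42) and Col23a1 (-0.70 ± 0.29). The smallest adjusted p in edgeR was 0.698, and DESeq2 called 1 member, Col8a2 (0.0592% of all genes). The first 4 of these are fibrillar. The 12 meningeal fibroblast genes summed to 48.2 to 62.1 CPM in SI_WT and 55.6 to 159 CPM in GH_WT, and their part in the result was not tested. Without GH_WT 2, GH_WT 4 and SI_EE 1, the libraries with Tcf7l2 over 30 or Gabra6 over 100 CPM, the count was 2 of 43, against 2.69% of all genes in either direction. Of the 8 named above, Col22a1 was the only one at that level, at -1.38 (edgeR unadjusted p = 0.00875). Col1a2 was then at -0.08, Col1a1 at -0.30, Col3a1 at -0.59, Col5a2 at -0.51 and Col8a2 at -1.06. Without GH_WT 4 alone the count was 3, without SI_WT 3 it was 4 and without SI_WT 2 it was 5. Col4a1 (0.09 ± 0.15), Col4a2 (0.10 ± 0.23), Col19a1 (-0.04 ± 0.17) and Col25a1 (-0.32 ± 0.45) were close to 0 beside their errors.

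**Figure D4:**
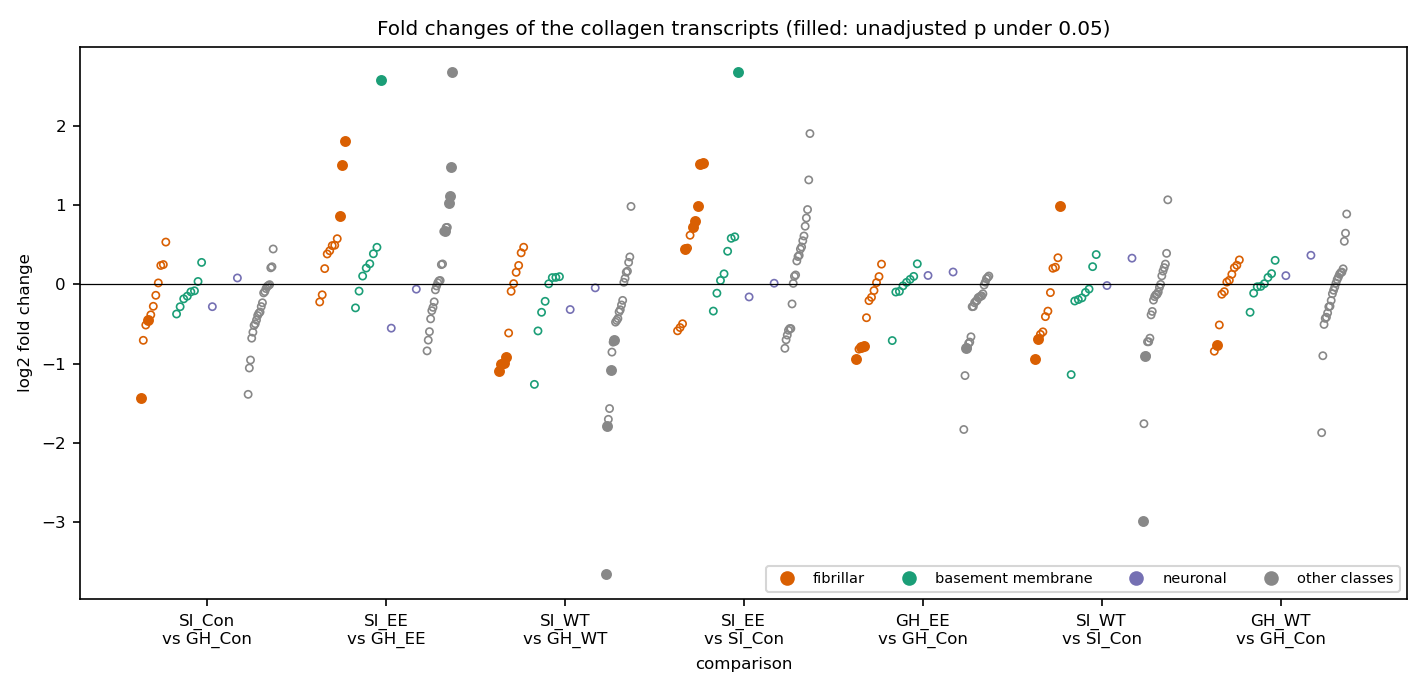
Log2 fold changes of the 43 members in the 7 pairwise comparisons, coloured by class; filled points have an unadjusted p under 0.05. The 9 filled points of SI_EE against GH_EE lie above 0, the 8 of SI_WT against GH_WT lie below it, and no neuronal member is filled.

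EE in isolated mice, SI_EE against SI_Con, gave 7 members at an unadjusted p under 0.05, all higher, where 7.03% of all genes were higher and 5.56% lower at that level. Of these, 6 were fibrillar: Col27a1 (1.52 ± 0.40), Col3a1 (1.54 ± 0.49), Col11a2 (0.44 ± 0.17), Col5a2 (0.72 ± 0.30), Col2a1 (0.99 ± 0.46) and Col1a2 (0.80 ± 0.38). The other was Col18a1 (2.68 ± 0.71). The smallest adjusted p in edgeR was 0.178, and DESeq2 called Col27a1 and Col18a1 (0.859% of all genes). Members positive numbered 30 of 43, against 50.7% of all genes. Without SI_EE 1 the count was 3 of 43, against 10.5% of all genes in either direction. Col18a1 was then at 0.40, Col1a2 at 0.49 and Col27a1 at 0.63 (unadjusted p = 0.0226), while Col3a1 had 1.10 (edgeR unadjusted p = 0.0364) and Col11a2 had 0.57 (unadjusted p = 0.00330). Meningeal fibroblast genes summed to 87.5 to 212 CPM in SI_EE and 85.5 to 100.5 CPM in SI_Con. Their part in the result was not tested. Leaving out SI_EE 2 in place of SI_EE 1 gave 14 members, and leaving out SI_Con 3 gave 11. The share of all genes in these fits is not given, so these counts are not read as a result about the members.

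EE in GH mice, GH_EE against GH_Con, gave 4 members at an unadjusted p under 0.05, all lower, where 3.7% of all genes were lower and 2.62% higher at that level. In all 13 of 43 were positive, against 46.4% of all genes. They were the fibrillar Col11a1 (-0.77 ± 0.32), Col24a1 (-0.79 ± 0.37) and Col2a1 (-0.94 ± 0.45), and the fibril-associated Col20a1 (-0.81 ± 0.33). Adjusted p in edgeR was 0.709 or above for each, and DESeq2 called none (0.128% of all genes). The count was 0 without GH_EE 4, 1 without GH_Con 2 or GH_Con 3, and 2 without GH_EE 2. Col2a1 stood at 0.849, 1.18, 0.909 and 0.619 CPM in GH_EE, below the GH_Con range of 1.43 to 2.12 CPM. Col1a1 (0.10 ± 0.39), Col4a1 (-0.02 ± 0.15), Col4a2 (0.02 ± 0.23), Col18a1 (-0.09 ± 0.68), Col19a1 (0.16 ± 0.17) and Col25a1 (0.11 ± 0.45) were within their errors of 0.

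The WT arm in isolated mice, SI_WT against SI_Con, gave 4 lower members (2.44% of all genes) and 1 higher (1.4%) at an unadjusted p under 0.05. In all 13 of 43 were positive, against 48.9% of all genes. Both type VIII chains were among the lower ones, Col8a2 at -2.99 ± 0.97 and Col8a1 at -0.91 ± 0.32. Col5a3 had -0.94 ± 0.40 and Col5a2 -0.69 ± 0.31, and Col2a1 was the higher one at 0.99 ± 0.46. Adjusted p in edgeR was 1 for each, and DESeq2 called no member (0.00987% of all genes). Without the 3 libraries with Ttr over 100 CPM, Col8a2 had -2.16 (edgeR unadjusted p = 0.0235) and Col8a1 -0.61 (unadjusted p = 0.0725). Without SI_Con 3, the library highest for Col5a3 in its group, Col5a3 had -0.34, and the count was 3; without SI_Con 2 it was 9. Summed CPM of fibroblast genes (48.2 to 62.1 CPM in SI_WT, 85.5 to 100.5 CPM in SI_Con) and of choroid plexus genes did not overlap between the groups. By mean log2 CPM the fibroblast genes did overlap. The part of both lists in the result was not tested. Col1a1 (-0.63 ± 0.39), Col1a2 (-0.41 ± 0.38) and Col3a1 (-0.34 ± 0.50) were not at that level, and Col4a1 had -0.06 ± 0.15, Col19a1 -0.02 ± 0.17 and Col25a1 0.33 ± 0.45. This comparison and that of SI_EE share the SI_Con libraries.

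The WT arm in GH mice, GH_WT against GH_Con, gave 1 member at an unadjusted p under 0.05, Col24a1 at -0.77 ± 0.37 (edgeR adjusted p = 1), where 1.64% of all genes were lower and 1.78% higher at that level. DESeq2 called none (0.0494% of all genes). Without GH_WT 2, GH_WT 4 and SI_EE 1 Col24a1 had -0.47. Leaving out GH_Con 2, GH_Con 3, GH_Con 4, GH_WT 1 or GH_WT 2 gave no member at that level, and leaving out GH_WT 3 gave 2. Members were evenly divided, 22 positive and 21 negative, against 48.6% of all genes positive.

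Differences between housings in the response were tested as interactions. The EE response in isolated mice minus that in GH mice was positive for 33 of 43 members, against 51.6% of all genes, with a median of 0.50 against 0.01 over all genes. At an unadjusted p under 0.05 there were 9 members, all positive (5.16% of all genes; 2.58% were negative). They were the fibrillar Col2a1 (1.93 ± 0.65), Col27a1 (1.49 ± 0.56), Col5a2 (1.14 ± 0.43), Col11a2 (0.65 ± 0.24) and Col5a3 (1.28 ± 0.56), with Col18a1 (2.76 ± 0.97), Col20a1 (1.42 ± 0.46), Col9a3 (1.40 ± 0.56) and Col17a1 (3.74 ± 1.40). The smallest adjusted p in edgeR was 0.511, and DESeq2 called none (0.143% of all genes). Without SI_EE 1 the count was 4 of 43 (6.38% of all genes in either direction); Col2a1 had 1.75, Col20a1 1.07, Col5a2 0.91 and Col11a2 0.77, and Col18a1 was at 0.49. For the WT arm, Col8a2 (-3.88 ± 1.29; 2.66% of all genes lower) and Col2a1 (1.84 ± 0.65; 1.86% higher) were at that level, with an adjusted p of 1 in edgeR and no call in DESeq2. In all 16 of 43 were positive, against 49.6% of all genes. Col8a2 had -1.28 without GH_WT 2, GH_WT 4 and SI_EE 1 and -2.01 without those with Ttr over 100 CPM. For any difference among the 6 groups, 6 members were at an unadjusted p under 0.05, Col18a1, Col27a1, Col5a3, Col5a2, Col3a1 and Col8a2 (8.23% of all genes). DESeq2 called 4 of the 43, Col18a1, Col27a1, Col5a3 and Col5a2 (1.06% of all genes), and none without SI_EE 1. In edgeR the count for any difference was 14 without SI_EE 2, 11 without SI_Con 3 and 10 without SI_Con 2 or SI_WT 4. For these fits too the share of all genes is not given.

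**Figure D5:**
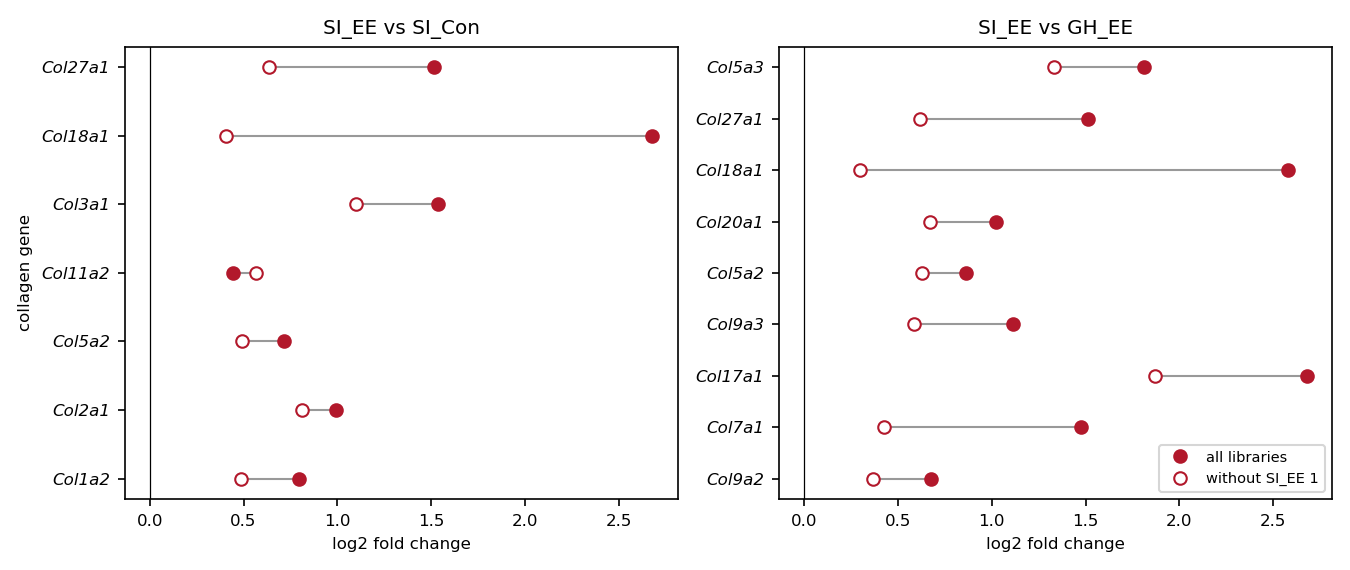
Log2 fold changes of the members at an unadjusted p under 0.05 in SI_EE against SI_Con (left) and SI_EE against GH_EE (right), with all libraries (filled) and without SI_EE 1 (open). Col18a1 moves from 2.68 to 0.40 and from 2.58 to 0.30 when that library is left out, and Col3a1 and Col5a3 move least among members above 1.5.

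Genes that act on collagen were read from 6 lists of 76 genes, of which 72 were tested. None passed the adjusted threshold in any comparison with edgeR. DESeq2 called Plod1 in SI_EE against SI_Con (adjusted p = 0.0103) and in SI_Con against GH_Con (adjusted p = 0.0403), and Dcn in SI_WT against GH_WT (adjusted p = 0.0316). The folding and modification list (21 genes) covers the hydroxylases and chaperones of the endoplasmic reticulum. In SI_EE against SI_Con it had 4 members higher and none lower at an unadjusted p under 0.05, where 7.03% of all genes were higher and 5.56% lower, led by the lysyl hydroxylase Plod1 (0.45 ± 0.10) and the collagen chaperone Serpinh1 (0.68 ± 0.21). Without SI_EE 1 this list had 3 higher and none lower, with Plod1 at 0.51 and Serpinh1 at 0.51 (edgeR unadjusted p = 0.0186). The procollagen-trimming protease Tll1 had 2.09 ± 0.65 with all libraries and 0.42 without SI_EE 1 (edgeR unadjusted p = 0.350). Of all 72 genes 58 were positive in SI_EE against SI_Con, against 50.7% of all genes, and 9 were higher at that level. Without SI_EE 1 these counts were 52 and 4. Plod1 stood at 21.6, 23.6, 28.1 and 23.8 CPM in SI_EE, against 16.3, 19.3, 17.9 and 17.5 CPM in SI_Con. Those ranges did not overlap, and Plod1 had -0.44 ± 0.10 in SI_Con against GH_Con, a comparison that shares the SI_Con libraries. In GH_EE against GH_Con the prolyl hydroxylase subunits P4ha1 (0.74 ± 0.18) and P4ha2 (0.61 ± 0.25) were higher at that level. Of all genes 2.62% were higher and 3.7% lower there. The folding and modification list had 7 of 21 genes positive in this comparison, with a median of -0.096. The subunit P4ha3, not at that level, went the other way. It stood at 2.20, 2.29, 1.42 and 2.30 CPM in GH_EE, against 3.24, 2.90, 3.06 and 3.18 CPM in GH_Con. P4ha1 stood at 84.8, 62.9, 63.5 and 79.4 CPM in GH_EE, against 41.3, 49.3, 34.6 and 48.2 CPM in GH_Con, with no overlap.

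Small leucine-rich proteoglycans bind fibrils and set their width. All 7 tested were negative in SI_WT against GH_WT, with a median of -1.39, and in SI_WT against SI_Con, with a median of -0.88; at an unadjusted p under 0.05 there were 4 lower in each (3.61% and 2.44% of all genes were lower at that level). Without GH_WT 2, GH_WT 4 and SI_EE 1 the comparison with GH_WT had 6 of 7 negative, a median of -0.64 and 2 lower at that level. Decorin (Dcn) had -1.62 ± 0.38 and osteoglycin (Ogn) -1.50 ± 0.39 against GH_WT, and without those 3 libraries Dcn had -0.98 (edgeR unadjusted p = 0.00562) and Ogn -0.86 (unadjusted p = 0.0248). Against SI_Con, Ogn had -1.41 ± 0.39 and fibromodulin (Fmod) -1.18 ± 0.43, and Fmod had -0.84 without SI_Con 3 (edgeR unadjusted p = 0.0663). Ogn stood at 1.26, 1.24, 1.48 and 2.11 CPM in SI_WT, against 4.22, 4.86, 4.82 and 2.27 CPM in SI_Con. No SI_WT library overlapped SI_Con for Ogn. Dcn, Ogn, Fmod and Lum also belong to the list of meningeal fibroblast genes above. In the WT by housing interaction all 7 were negative too, with Ogn at -1.74 ± 0.54 and Dcn at -1.27 ± 0.53, where 49.6% of all genes were positive. Without those 3 libraries 6 of 7 were negative there, with Ogn at -1.10 and Dcn at -0.63 (edgeR unadjusted p = 0.0269 and 0.141). Among receptors, Adgrg1, the adhesion receptor that binds type III collagen in the developing cortex, had -0.58 ± 0.14 in SI_WT against GH_WT, -0.41 there without those 3 libraries (edgeR unadjusted p = 0.0134), and -0.37 ± 0.14 in SI_WT against SI_Con. Ddr1, a collagen-activated kinase, had -0.42 ± 0.13 in SI_WT against GH_WT, where it had -0.29 without those 3 libraries (edgeR unadjusted p = 0.0714), -0.34 ± 0.13 in SI_Con against GH_Con and 0.31 ± 0.13 in SI_EE against SI_Con. Without SI_Con 3 the last 2 values of Ddr1 were -0.22 and 0.19. Of the basement membrane partners (13), all were negative in SI_WT against GH_WT, against 49.5% of all genes positive, and 2 were lower at an unadjusted p under 0.05, nidogen 1 (Nid1, -0.60 ± 0.20) and the laminin chain Lama1 (-0.99 ± 0.47). Without GH_WT 2, GH_WT 4 and SI_EE 1 it was 10 of 13, with none at that level, and Nid1 had -0.22 and Lama1 -0.20. In SI_Con against GH_Con 12 of these 13 were negative, against 50.1% of all genes positive, with Nid2 at -0.57 ± 0.26. Nid2 had -0.48 there without SI_Con 3 (edgeR unadjusted p = 0.101). It had -0.63 without the libraries with Ttr over 100 CPM (edgeR unadjusted p = 0.0441). Leaving out GH_WT 2, GH_WT 4 and SI_EE 1 gave -0.57 (edgeR unadjusted p = 0.0427). Processing enzymes and their helpers gave Pcolce, the enhancer of procollagen trimming, at -0.72 ± 0.31 in SI_WT against SI_Con, -0.75 ± 0.31 in SI_WT against GH_WT and 0.70 ± 0.30 in SI_EE against GH_EE. Without GH_WT 2, GH_WT 4 and SI_EE 1 Pcolce had -0.13 in SI_WT against GH_WT and 0.30 in SI_EE against GH_EE (edgeR unadjusted p = 0.625 and 0.201). Its value in SI_WT against SI_Con was then -0.72 (edgeR unadjusted p = 0.00330). In that comparison it was -0.56 without SI_Con 3 (edgeR unadjusted p = 0.0978). It was -0.68 without the libraries with Ttr over 100 CPM (edgeR unadjusted p = 0.0593). In the breakdown list, the surface protease Fap had -1.10 ± 0.33 in SI_EE against SI_Con and -0.77 without SI_EE 1. The protease inhibitor Timp3 had -0.44 ± 0.14 in SI_WT against GH_WT and -0.12 without GH_WT 2, GH_WT 4 and SI_EE 1 (edgeR unadjusted p = 0.397).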

How the data were processed

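RNA of 24 medial prefrontal cortex samples was extracted with Trizol and a column step with DNase and sequenced on an Illumina instrument, per the labels' protocols. The authors deposited raw whole-number read counts per gene, keyed by Ensembl ID and paired with symbols for 91.8% of entries. The build was mm10, per the submitters' processing notes; no aligner, counter, annotation or strand setting is named (not given in the sources used here). Entries without a symbol took 0.695% of reads. All value columns were matched to titles.

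Counts were scaled by TMM, filtered with filterByExpr and fitted with edgeR 4.0.16 (glmQLFit, robust, and glmQLFTest; limma 3.58.1, R 4.3.3) as 6 group means over 24 libraries, with Benjamini-Hochberg adjustment and a threshold of 0.05. DESeq2 1.42.0 was an alternative. Log2 CPM used a prior count of 2. Relations used permutation tests with 100000 resamples (scipy 1.17.1). The fit was tested on simulated counts. Totals of 33683587 to 51274917 counts limit the precision of members near 1 CPM, and levels cover counting error and differences between samples together.

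Collagen members, classes and gene lists were chosen with earlier results of these data known. Fold changes were given for each member with an unadjusted p under 0.05; Col1a1, Col1a2, Col3a1, Col4a1, Col4a2, Col18a1, Col19a1, Col25a1 and the 2 highest members of each other class always got their levels; each list of collagen-acting genes gave up to 2 genes of smallest p, and a few more were named after their values were seen. Alternatives were DESeq2, its size factors in edgeR, no TMM, no low-count filter, a replicate block, sex read from the data as a covariate, only the 2 groups compared, and leaving out libraries singly or by long-gene bias. Leaving out libraries with Gabra6 over 100 or Tcf7l2 over 30 CPM, those with Ttr over 100 CPM, DESeq2 without SI_EE 1, splitting by Slc17a7, and all alternatives for collagen-acting genes and for members not at that level were chosen after seeing the data. Promoter windows are RefSeq's (GRCm38.p6) and gene positions GENCODE M21's (GRCm38).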

Additional observations from a re-analysis of the deposited data

Results flagged for a closer look

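In a group of 4 libraries, a library was marked where its gap to the nearest of the other 3 was a large share of the group's range (Dixon's 95% limit). This marked 20 of 174 gene and group combinations over 29 collagen genes. At 1 in 20 the limit would mark 8.7 if values were normally distributed and genes independent. CPM was not transformed, the genes share libraries, and some of the 29 were named for a small p in these data. These counts are therefore no test of an excess over chance. SI_WT 4 stood apart from the other SI_WT libraries for Col6a1 at 68.5 CPM against 34.6 to 39.5 CPM, Col27a1 at 10.3 CPM against 5.93 to 6.66 CPM, Col24a1 at 12.5 CPM against 4.59 to 5.55 CPM and Col1a1 at 3.10 CPM against 1.63 to 1.87 CPM. SI_Con 3 stood apart from the other SI_Con libraries for Col4a2 at 89.96 CPM against 36.9 to 44.7 CPM, Col11a1 at 28.7 CPM against 8.42 to 10.2 CPM and Col5a3 at 7.43 CPM against 2.13 to 2.87 CPM. GH_EE 3 stood apart from the other GH_EE libraries for Col11a2 at 23.3 CPM against 16.6 to 17.7 CPM and Col9a1 at 0.738 CPM against 0.147 to 0.232 CPM. SI_EE 1 stood apart from the other SI_EE libraries for Col6a2 at 4.51 CPM against 13.0 to 14.5 CPM, Col27a1 at 42.6 CPM against 9.05 to 10.3 CPM, Col18a1 at 59.0 CPM against 3.41 to 3.77 CPM and Col7a1 at 9.91 CPM against 1.63 to 2.27 CPM. GH_Con 1 stood apart from the other GH_Con libraries for Col1a2 at 15.1 CPM against 7.34 to 7.58 CPM, Col23a1 at 7.40 CPM against 4.39 to 4.63 CPM and Col13a1 at 2.01 CPM against 0.517 to 0.630 CPM. GH_Con 2 stood apart from the other GH_Con libraries for Col11a1 at 14.4 CPM against 10.9 to 11.3 CPM. GH_WT 2 stood apart from the other GH_WT libraries for Col20a1 at 2.55 CPM against 1.49 to 1.53 CPM. SI_EE 2 stood apart from the other SI_EE libraries for Col2a1 at 0.218 CPM against 1.48 to 1.71 CPM. GH_WT 4 stood apart from the other GH_WT libraries for Col2a1 at 0.558 CPM against 1.04 to 1.12 CPM. In SI_EE 1 the cerebellar list of 8 genes summed to 4480 CPM, against at most 254 CPM elsewhere. Its part in these values was not tested. SI_WT 4 and SI_Con 3 were among the libraries in which longer genes read low, and the part of that was not tested either. In neither interaction did a collagen member reach an adjusted p of 0.05 in edgeR's quasi-likelihood test, where 9 and 2 members had an unadjusted p under 0.05.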

How the results depend on the processing

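With edgeR no collagen member passed the adjusted threshold in any comparison under the alternatives run, and no fold change of a member at an unadjusted p under 0.05 changed sign. Of 24 further member fold changes given, 13 changed sign under some alternative, with the cause not tested. Leaving out single libraries gave, in SI_Con against GH_Con, Col4a1 -0.12 to 0.12, Col4a2 -0.083 to 0.42 and Col19a1 -0.049 to 0.23; in GH_EE against GH_Con, Col1a1 -0.071 to 0.44, Col4a1 -0.069 to 0.056, Col4a2 -0.017 to 0.12, Col18a1 -0.18 to 0.037 and Col25a1 -0.088 to 0.25; in SI_WT against SI_Con, Col4a1 -0.14 to 0.10 and Col19a1 -0.14 to 0.12; and for Col19a1, -0.13 to 0.025 in SI_EE against GH_EE and -0.10 to 0.047 in SI_WT against GH_WT. Without the libraries in which longer genes read low, SI_Con against GH_Con gave Col4a1 -0.063, Col4a2 -0.000398 and Col25a1 0.16, and SI_WT against SI_Con gave Col19a1 0.079. Without the libraries with other-region transcripts Col19a1 was 0.012 in SI_EE against GH_EE, the same in DESeq2 without SI_EE 1; without those with Ttr, 0.00661 in SI_WT against GH_WT, and Col4a1 0.00414 in GH_EE against GH_Con. With sex as a covariate Col4a2 was -0.016 in GH_EE against GH_Con, and Col19a1 in SI_WT against SI_Con was 0.00253 with no low-count filter and 0.00865 with the replicate block. No named collagen-acting gene changed sign. Among the fold changes given for them, DESeq2 without SI_EE 1 called Plod1 in 2 comparisons and P4ha1 in GH_EE against GH_Con. It also called Dcn, Ogn and Adgrg1 in SI_WT against GH_WT. DESeq2 with all libraries called 2 members in SI_EE against SI_Con (Col27a1, adjusted p 0.0241, Col18a1, 0.00933; up to 0.784 over the alternatives of each), 2 in SI_EE against GH_EE (Col5a3, 0.0127, Col18a1, 0.0417; up to 1), 1 in SI_WT against GH_WT (Col8a2, 0.0309; up to 1) and 4 for any difference (Col18a1, 0.000537 to 0.861, Col27a1, 0.0134 to 0.809, Col5a3, 0.0213 to 0.809, Col5a2, 0.0385 to 0.809). The cause was not tested; without SI_EE 1 DESeq2 called none of the 43. The pooled r of Col25a1 and Slc17a7, 0.113, became -0.287 without SI_EE 1, -0.514 without SI_Con 3 and SI_EE 1, and -0.379 within the 12 libraries with higher Slc17a7.

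Leaving out single libraries moved the count of members at an unadjusted p under 0.05 between 3 and 14 in SI_EE against SI_Con, 3 and 12 in SI_EE against GH_EE, 3 and 10 in SI_WT against GH_WT, 3 and 9 in SI_WT against SI_Con, 1 and 5 in SI_Con against GH_Con, 0 and 3 in GH_EE against GH_Con, 0 and 2 in GH_WT against GH_Con, 4 and 12 in the EE interaction, 2 and 5 in the WT interaction, and 4 and 14 for any difference. Beside these counts the share of all genes is not given, so they are not read as a result about the members. Without the 3 libraries in which longer genes read low (SI_Con 2, SI_Con 3, SI_WT 4), 17 members were at that level for any difference (9.04% of all genes). There were 12 in SI_EE against SI_Con (9.23%) and 8 in SI_Con against GH_Con (8.38%). Of the other values, 63 moved, 35 changed sign, 18 became stronger and 2200 stayed. For a fold change, stayed means only the same sign and the same call at the adjusted threshold. As edgeR called no member, that label does not measure whether the size of a fold change held.

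No pairing by replicate number was seen. Same-numbered libraries had a median correlation of deviations of -0.0131 (-0.284 to 0.182), and 4 of 60 pairs were over 0.1. Of 24 libraries 4 correlated best with their own number. A weak effect shared by number could be missed by this measure. With the replicate number as a block 0 members were called in all 10 tests. At an unadjusted p under 0.05 there were 5 of 43 in SI_EE against SI_Con (11% of all genes). There were 8 in SI_EE against GH_EE (7.06%) and 9 in SI_WT against GH_WT (4.59%). With sex as a covariate that count was 2 in GH_EE against GH_Con (5.51% of all genes) and 0 in GH_WT against GH_Con (3.18%). It was 6 in SI_WT against SI_Con (3.93%) and 10 in the EE interaction (7.83%). Without the covariate these counts were 4, 1, 5 and 9. Depth limits members near 1 CPM, where single libraries held no read.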
